A study of Ischnura elegans with 24 samples.

Results

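The 100 contigs described here stood higher in larvae of southern than of northern populations of the damselfly Ischnura elegans, whichever of 2 temperatures the larvae were reared at. They were taken from a table of 34095 contigs by a rule on measured levels. Its members were chosen by their levels in all 24 libraries, as read counts scaled to the library size after TMM normalisation (CPM) and written as log2(CPM + 1). A contig needed a mean of 2 CPM or more over the 24 libraries, which 17996 contigs had. Its mean response to temperature (24 °C minus 20 °C) had to lie within -0.3 to 0.3 on the log2 scale in each latitude, which left 13309. The gap was the mean of the lowest southern population minus the mean of the highest northern population, and it was above 0 for 2571 of these. The 100 with the widest gaps form the list. All 100 were among the 31287 contigs that passed the filter on low counts and were tested.

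Male larvae in their final stage were used whole. All had been kept singly from hatching, fed brine shrimp nauplii, and descended from mothers of 3 southern or 3 northern populations, so every group shared diet, sex and stage. The 4 groups were southern larvae reared at 24 °C, southern larvae reared at 20 °C, northern larvae reared at 24 °C and northern larvae reared at 20 °C. Each held 6 libraries, 2 pools (a and b) from each of 3 populations, and each pool combined the RNA of 3 larvae. Populations are known only by latitude and number, and the larvae are labelled as the F0 generation, so a difference between latitudes is a difference between these 3 and 3 populations. The series title sets genetic compensation against genetic assimilation under mild warming, and the contigs listed here are ones whose mean response to temperature was limited by the rule in each latitude.

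Populations of an ectotherm from different latitudes can differ in gene expression either in how they respond to temperature or in their level at every temperature. Rearing larvae of all populations under the same conditions lets the second kind be measured at each rearing temperature. A contig is a stretch of transcript assembled from reads without a genome, and the assembler Trinity groups contigs that may be isoforms, alleles or close copies into a Trinity gene. No gene names stand beside the contigs in the files, and 0 of the 34095 identifiers were found among the 21087 genes that RefSeq lists for the species (assembly ioIscEleg1.1). The contigs are therefore given by identifier, without a function or a sequence, and the whole-body label could not be checked against marker genes.

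Library totals were 12061616 to 16868514 counts in southern larvae and 13046281 to 17157615 in northern larvae. TMM factors were 0.931 to 1.16 in southern libraries and 0.80 to 1.08 in northern libraries. A floor of 3 counts stood for 0.176 to 0.283 CPM, depending on the library. At this depth 6 of the 100 contigs were at or under the floor in at least 1 northern library, 4 of them in 6 or more, and 0 in all 12. In southern libraries 1 contig was at or under the floor in at least 1.

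The 100 contigs together made up more of the RNA of southern larvae in every population and at both temperatures. Their summed level was 3151 ± 365 CPM in southern larvae at 24 °C, with 3119 ± 524 CPM in those at 20 °C, against 1749 ± 173 CPM in northern larvae at 24 °C and 1868 ± 528 CPM in northern larvae at 20 °C (SD, n = 6 each). The mean share of raw counts was 0.324% in southern larvae reared at 24 °C and 0.340% in those reared at 20 °C, against 0.155% in northern larvae reared at 24 °C and 0.191% in those reared at 20 °C. By library, the sum ran from 2769 over a median of 3043 to 3796 CPM in southern larvae at 24 °C, while in those at 20 °C it ran from 2465 over 2988 to 3907 CPM. It ran from 1560 over 1719 to 1990 CPM in northern larvae at 24 °C and from 1060 over 1872 to 2454 CPM in northern larvae at 20 °C. The lowest southern library, pool a of population 1 at 20 °C, thus lay just above the highest northern library, pool b of population 3 at 20 °C. The lowest library of all was pool b of northern population 1 at 20 °C. In a whole-body pool, fewer cells of a type and less RNA per cell cannot be told apart.

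**Figure D1:**
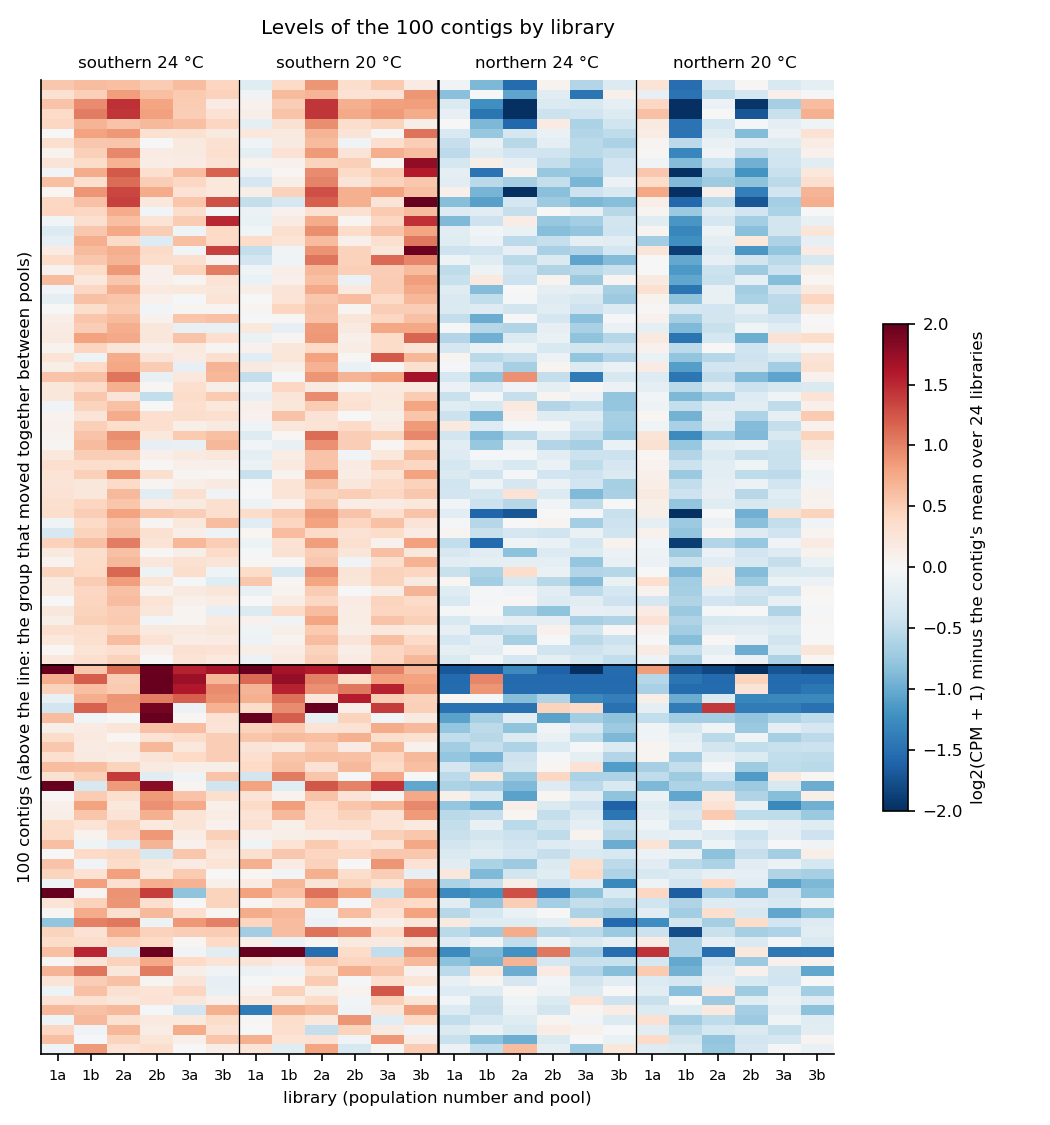
Heat map of the 100 contigs (rows) in the 24 libraries (columns, by group, population number and pool), coloured by log2(CPM + 1) minus the contig's mean over all libraries, with colours ending at -2 and 2. Southern columns are mostly red and northern columns mostly blue, and pool a of northern population 1 at 20 °C is paler than its partner pool b, most clearly in the upper block of 60 contigs.

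These values chose the list and are a description. The gap ranged from 0.33 to 2.27 with a median of 0.42 on the log2 scale. The contigs ranked 99 and 100 had gaps of 0.331 and 0.331, and the 2 contigs just outside the list had 0.331 and 0.330, so nothing separates the last contigs listed from the next. Mean levels ran from 2.07 to 199 CPM with a median of 9.78 CPM, close to the median of 9.65 CPM over all contigs with 2 CPM or more. By mean level, 34 contigs lay under 5 CPM, 52 from 5 to 50 CPM and 14 at 50 CPM or more. Mean CPM in southern larvae was 1.35 to 10.98 times that in northern larvae, with a median of 1.77. Most differences were therefore modest: 20 contigs differed by less than 1.5-fold, 27 by at least 2-fold and 7 by at least 4-fold.

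With population as the replicate (3 southern against 3 northern, each summed over its libraries), edgeR's quasi-likelihood test at a Benjamini-Hochberg adjusted p under 0.05 called 55 of the 100 contigs higher in southern larvae. Over all tested contigs 0.566% were called higher (177 of 31287), and the rule used the same contrast. The median log2 fold change was 0.83 over the list and -0.01 over all tested contigs. The number called moved with which populations were in the fit. It was 2 without southern population 2 (13 over all contigs), 6 without southern population 3 (21 over all), 7 without northern population 1 (33 over all), 4 without northern population 2 (13 over all) and 28 without northern population 3 (120 over all). The list's median log2 fold change in these 5 fits was 0.78 to 0.83, and 96 to 98 of its contigs had an unadjusted p under 0.05. Without southern population 1, 154 of all contigs were called higher. In that fit the list's median was 0.90, and 97 of its contigs had an unadjusted p under 0.05. Of single libraries, leaving out pool b of southern population 1 at 24 °C gave 16 (49 over all contigs). Leaving out pool b of northern population 1 at 20 °C gave 32 (84 over all). The count rose to 77 (373 over all) without pool a of southern population 1 at 20 °C. DESeq2 called 97 of the list and 1098 of all 31112 contigs it tested higher, and limma with population as a random block called 95 of the list and 1355 of all 31287.

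The median latitude difference over the list was of like size at both temperatures, which the rule favoured without fixing it at each temperature. The median log2 fold change was 0.80 at 24 °C, where the list ranged from 0.34 to 4.23, and 0.79 at 20 °C, where it ranged from 0.39 to 3.27. Single contigs varied more. The log2 difference was larger at 24 °C than at 20 °C for 61 of the 100, and TRINITY_DN1332_c14_g5_i7 had 4.23 at 24 °C and 2.89 at 20 °C. That contig's northern median was 1.10 CPM at 24 °C and 0.926 CPM at 20 °C. A single northern library at 20 °C, pool a of population 1, had 10.7 CPM, where the next had 1.01 CPM. At 24 °C 13 of the 100 contigs were called higher (0.192% of all contigs), and 8 of those were also called with both temperatures together. At 20 °C 0 contigs were called, in the list or in the whole table, by edgeR's quasi-likelihood test, although 92 of the 100 had an unadjusted p under 0.05 (6.15% of all contigs) and DESeq2 called 55 of the list. DESeq2's count over all contigs at 20 °C is not given, so these 55 have no share beside them. With both temperatures together DESeq2 called 1098 of 31112 contigs higher, where edgeR called 177 of 31287. Every southern population lay above every northern one at 24 °C for 95 contigs (12.8% of contigs with 2 CPM or more), at 20 °C for 91 (12.5%) and at both for 87 (4.75%).

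Single libraries overlapped far more than population means did. For 7 of the 100 contigs the lowest of the 12 southern libraries was above the highest of the 12 northern libraries, as it was for 0.1% of all contigs with 2 CPM or more (18 of 17996). Pool a of northern population 1 at 20 °C was the highest northern library for 33 contigs and pool b of northern population 3 at 20 °C for 24, where over all contigs with 2 CPM or more each was highest for 7.28% and 7.46%. Pool a of southern population 1 at 20 °C was the lowest southern library for 41 contigs, against 9.46% of all contigs.

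The widest gap was that of TRINITY_DN1332_c14_g5_i7. It had 8.53, 18.7 and 36.9 CPM (lowest, median and highest library) in southern larvae at 24 °C and 9.54, 19.2 and 32.5 CPM in southern larvae at 20 °C. Northern larvae had 0.353, 1.10 and 1.72 CPM at 24 °C and 0.481, 0.926 and 10.7 CPM at 20 °C. The groups overlapped through the last of these values alone, which came from pool a of northern population 1, and no other northern library passed 1.72 CPM. The log2 fold change was 3.42 ± 0.64 (SE, 3 populations each) and 4.34 without that library. By edgeR's quasi-likelihood test the contig was not called with both temperatures together (adjusted p = 0.0656). It was called at 24 °C alone (adjusted p = 0.00303). Its Trinity gene held 1 other contig, and the share of the gene's summed CPM that the listed contig took was 92.9% ± 3.8 in southern libraries and 46.8% ± 16.4 in northern libraries (SD, n = 12 each).

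The next 2 contigs by gap, TRINITY_DN6237_c0_g1_i2 and TRINITY_DN6237_c0_g1_i1, were the only contigs of 1 Trinity gene and had nearly the same profile. The first had 3.13, 4.86 and 14.7 CPM in southern larvae at 24 °C, with 2.82, 4.59 and 9.00 CPM in those at 20 °C. In northern larvae it was at or under the floor in 9 of 12 libraries. The 3 northern libraries above the floor were pool b of population 1 at 24 °C with 4.78 CPM, pool b of population 2 at 20 °C with 3.02 CPM and pool a of population 1 at 20 °C with 0.986 CPM. In the same 3 libraries the second contig had 4.38, 2.47 and 0.863 CPM, and it too was at or under the floor in the other 9. The pair was thus above the floor in all 12 southern pools and in few northern ones, and pools of the same northern population lay on both sides of the floor. The first contig's log2 fold change of 2.94 ± 1.02 (SE, 3 populations each) was 3.88 without pool b of northern population 1 at 24 °C. With all libraries it was not called (edgeR's quasi-likelihood test, adjusted p = 0.204). Reads common to both contigs could have been split between them.

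The contigs with the most reads differed less between latitudes. TRINITY_DN121809_c0_g1_i1 had the highest mean, not corrected for contig length. It had 186, 250 and 337 CPM in southern larvae at 24 °C, with 194, 224 and 317 CPM in those at 20 °C, against 88.1, 157 and 201 CPM in northern larvae at 24 °C and 90.7, 147 and 214 CPM in northern larvae at 20 °C. The libraries overlapped, but the population means did not: they were 219, 268 and 255 CPM in southern populations 1 to 3 and 154, 154 and 143 CPM in northern populations 1 to 3. The log2 fold change was 0.71 ± 0.09 (SE, 3 populations each).

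TRINITY_DN126643_c0_g1_i1 was next in mean level and only just inside the list, at rank 95. It had 209, 223 and 250 CPM in southern larvae at 24 °C, with 173, 205 and 266 CPM in those at 20 °C. Northern larvae had 128, 152 and 196 CPM at 24 °C and 113, 157 and 196 CPM at 20 °C. At 24 °C the 2 latitudes did not overlap, and at 20 °C they did. Its log2 fold change was 0.47 ± 0.07 (SE, 3 populations each).

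**Figure D2:**
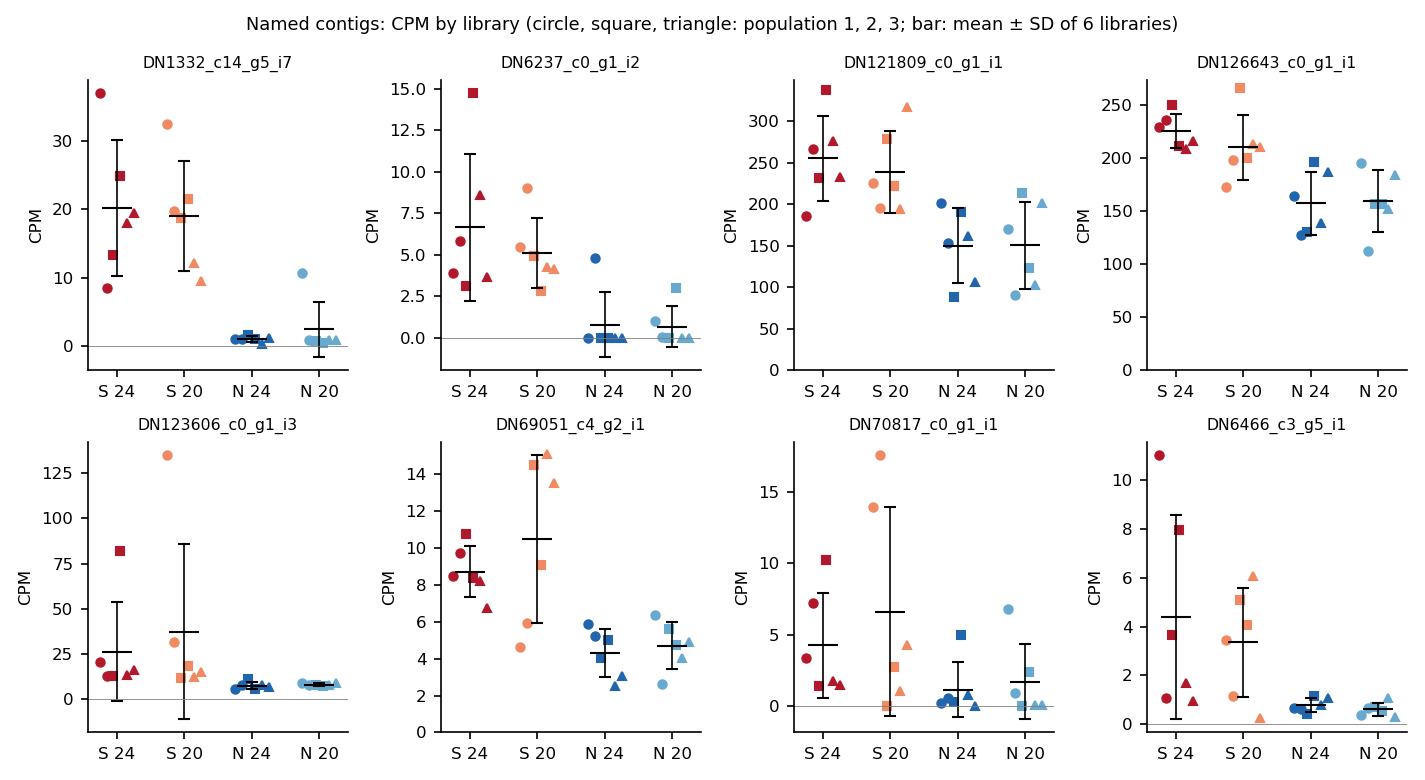
CPM of 8 named contigs in each library, by group (S southern, N northern, 24 or 20 °C), with symbols for populations 1 to 3 and bars for the mean ± SD of 6 libraries. Southern means lie higher in each panel at both temperatures. Points of the latitudes overlap in all panels but that of DN123606_c0_g1_i3. For DN70817_c0_g1_i1 the whole northern range lies inside the southern range.

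Temperature moved none of the 100 contigs past the threshold, which the rule's limits on the mean response favoured. By edgeR's quasi-likelihood test with population in the model, 0 were called in southern larvae (0.105% of all contigs; 0 with an unadjusted p under 0.05), 0 in northern larvae (0.559%; 1 unadjusted) and 0 for the difference of the responses (0.0256%; 0 unadjusted), and DESeq2 also called 0 of each. The responses were spread on both sides of 0. The response of southern larvae was positive for 51 contigs and that of northern larvae for 41, with medians of 0.00 and -0.05 on the log2 scale.

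The rule did not use how the populations of a latitude differed in their responses. In a fit with a temperature slope for each population, edgeR's quasi-likelihood test called 0 of the 100 for unequal slopes among southern populations and 0 among northern populations, as over all tested contigs (0% for both). At an unadjusted p under 0.05 there were 3 among southern and 4 among northern populations, shares below the 4.14% and 6.8% of all contigs. DESeq2 called 0 for either latitude.

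The smallest of these p-values belonged to TRINITY_DN123606_c0_g1_i3 (unadjusted p = 0.00387 by edgeR's quasi-likelihood test, adjusted p = 1). It had 12.6, 14.9 and 82.0 CPM in southern larvae at 24 °C, with 11.7, 16.6 and 134.8 CPM in those at 20 °C, against 5.73, 7.39 and 11.1 CPM in northern larvae at 24 °C and 7.14, 7.98 and 9.06 CPM in northern larvae at 20 °C. It is among the 7 contigs with no overlap between latitudes, yet its southern mean rests on few pools. The highest southern values came from pool a of population 1 at 20 °C with 134.8 CPM, pool b of population 2 at 24 °C with 82.0 CPM and pool b of population 1 at 20 °C with 31.6 CPM, and the other 9 southern libraries lay between 11.7 and 20.6 CPM. Its log2 fold change was 1.98 ± 0.43 (SE, 3 populations each) and 1.5 without pool a of southern population 1 at 20 °C. With all libraries it was not called for latitude (edgeR's quasi-likelihood test, adjusted p = 0.0847).

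TRINITY_DN69051_c4_g2_i1 came next (unadjusted p = 0.00522 by edgeR's quasi-likelihood test, adjusted p = 1). At 20 °C southern population 1 had 4.63 and 5.95 CPM, southern population 2 had 14.5 and 9.11 CPM, and southern population 3 had 15.1 and 13.5 CPM. At 24 °C the 6 southern libraries lay between 6.78 and 10.8 CPM, and the 12 northern libraries lay between 2.54 and 6.35 CPM over both temperatures. Southern population 1 at 20 °C was thus the only southern sample inside the northern range.

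For some contigs the southern populations lay far apart. The spread of southern population means had a median of 0.25 on the log2 scale over the list and 0.20 over all contigs with 2 CPM or more, and that of northern population means 0.21 and 0.24. Southern population 1 was the lowest of the 3 for 71 contigs and southern population 2 the highest for 57. The widest southern spread was that of TRINITY_DN70817_c0_g1_i1, with 10.5, 3.58 and 2.14 CPM in southern populations 1 to 3 and 2.10, 1.89 and 0.230 CPM in northern populations 1 to 3. Its southern libraries ran from 0 to 17.6 CPM and its northern libraries from 0 to 6.78 CPM, so the whole northern range lay inside the southern range. The log2 fold change was 1.98 ± 0.91 (SE, 3 populations each) and 1.09 without southern population 1. With all populations the contig was not called for latitude (edgeR's quasi-likelihood test, adjusted p = 0.304).

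The next in southern spread, TRINITY_DN6466_c3_g5_i1, had 4.17, 5.19 and 2.23 CPM in southern populations 1 to 3 and 0.573, 0.687 and 0.798 CPM in northern populations 1 to 3. By library it had 0.935, 2.66 and 11.0 CPM in southern larvae at 24 °C, with 0.253, 3.76 and 6.06 CPM in those at 20 °C. Northern larvae had 0.390, 0.710 and 1.13 CPM at 24 °C and 0.292, 0.611 and 1.05 CPM at 20 °C. The northern pools were all low, while southern pools were low or high. Its log2 fold change was 2.55 ± 0.33 (SE, 3 populations each).

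Between populations of 1 latitude, edgeR's quasi-likelihood test called 0 of the 100 contigs among southern populations (0.109% of all contigs; 1 with an unadjusted p under 0.05) and 1 among northern populations (0.694%; 8 unadjusted). DESeq2 called 0 and 2. The contig called by edgeR was TRINITY_DN235724_c0_g1_i1 (adjusted p = 0.0446), named because it was the only one. It had 1.75 to 2.03 CPM in 3 of the 4 libraries of northern population 1, with 0.404 CPM in pool b at 20 °C. Northern population 2 had 0.137 to 1.29 CPM and northern population 3 had 0.0896 to 0.146 CPM, while the 12 southern libraries had 1.52 to 7.31 CPM. All 4 libraries of northern population 3 and pool b of northern population 2 at 20 °C lay under the floor of 3 counts, where levels were not measurable. Northern levels thus ranged from above the floor to under it, and stayed low beside most southern pools. Among northern populations 0 contigs of the list were called without northern population 1 or 3 or without any 1 of the southern populations, and 2 without northern population 2.

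Other contigs of the same Trinity genes were not used by the rule, and most of them were higher in southern larvae too. The 100 contigs came from 93 Trinity genes, of which 62 held a single contig in the table. That is 66.7% of the 93, against 88.4% of all 29751 Trinity genes. The other 31 genes held 37 unlisted contigs, of which 36 in 26 genes were tested. The log2 fold change was above 0 for 35 of the 36 (48% of all tested contigs), with a median of 0.67 against -0.01 over all, and 23 of the 36 had an unadjusted p under 0.05 in that direction (8.83% of all). By edgeR's quasi-likelihood test 1 of the 36 was called higher and 0 lower (1.42% of all contigs were called lower, 0 of the 36 with an unadjusted p under 0.05), and DESeq2 called 15 higher and 0 lower. Isoforms share sequence, so reads counted for a listed contig and for its partner need not be separate molecules of separate transcripts.

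The contig called was TRINITY_DN178716_c0_g1_i1 (edgeR's quasi-likelihood test, adjusted p = 0.0317). It had 0.389, 0.903 and 1.15 CPM in southern larvae at 24 °C, with 0.586, 0.688 and 1.45 CPM in those at 20 °C, against 0.0673, 0.258 and 0.353 CPM in northern larvae at 24 °C and 0.0686, 0.104 and 0.555 CPM in northern larvae at 20 °C. Its level was low in both latitudes, at or under the floor of 3 counts in 8 of 12 northern libraries, and latitudes overlapped in 1 southern and 1 northern library. The log2 fold change was 1.93 ± 0.29 (SE, 3 populations each) and ran from 1.78 to 2.17 over 35 alternative fits. The adjusted p rose to 0.0570 to 0.148 when any 1 population was left out, and to 0.0501, 0.0533 and 0.0549 without pool b of southern population 1 at 24 °C, pool b of northern population 1 at 20 °C or pool a of northern population 3 at 24 °C. The listed contig of the same gene, TRINITY_DN178716_c0_g1_i2, averaged 4.40 CPM in southern larvae and 2.00 CPM in northern larvae.

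Summing the unlisted contigs of each gene gave a like picture. Of 26 such sums 25 were higher in southern larvae, 2 were called higher by edgeR's quasi-likelihood test (0.379% of all Trinity genes) and 0 lower (1.41%; 0 with an unadjusted p under 0.05), and the median log2 fold change was 0.66. The sums ran from -0.02 to 1.93. They lay near 0 for several genes, that with the widest gap included: its unlisted contig had a log2 fold change of 0.07 ± 0.28 (SE, 3 populations each) while its listed contig had 3.42. The listed contigs' share of their gene was higher in southern than in northern larvae in 21 of 27 genes with unlisted contigs. The rule favoured this, because it chose the listed contigs for high southern levels and not their partners. The count is a description.

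The same rule was applied to pool a of every population alone, and the contigs it chose were measured in pool b, and the reverse. Both pools of a population share their source, but each larva entered 1 pool. Eligible contigs are those that met the rule's limits on level and response in the pool that chose. Pool a chose 100 contigs, 19 of them on the list of 100. Measured in pool b, the mean level of the 3 southern populations was above that of the 3 northern populations for 94 of the 100 (54.8% of eligible contigs), with a median difference of 0.30 against 0.48 in the pool that chose them. Pool b chose 100 contigs, 33 of them on the list, and in pool a 96 of the 100 were higher in southern larvae (58.6% of eligible contigs), with a median difference of 0.54 against 0.85.

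The stricter measure, the gap between the lowest southern and the highest northern population, held less well. Of the contigs chosen in pool a, 50 of 100 had a gap above 0 in pool b (14.5% of eligible contigs), with a median of 0.00 against 0.27 in the pool that chose them. Of those chosen in pool b, 46 of 100 had a gap above 0 in pool a (16% of eligible contigs), with a median of -0.04 against 0.42. Each pool chose again 8 of the contigs that the other had chosen. For nearly all contigs chosen in a single pool, the direction of the latitude difference thus recurred in separate larvae of the same populations. Its size was smaller there, and which contigs ranked among the top 100 differed between pools. Only 19 of the contigs chosen in pool a and 33 of those chosen in pool b were on the list of 100. That list was chosen from both pools together, so it has no such separate measurement.

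**Figure D3:**
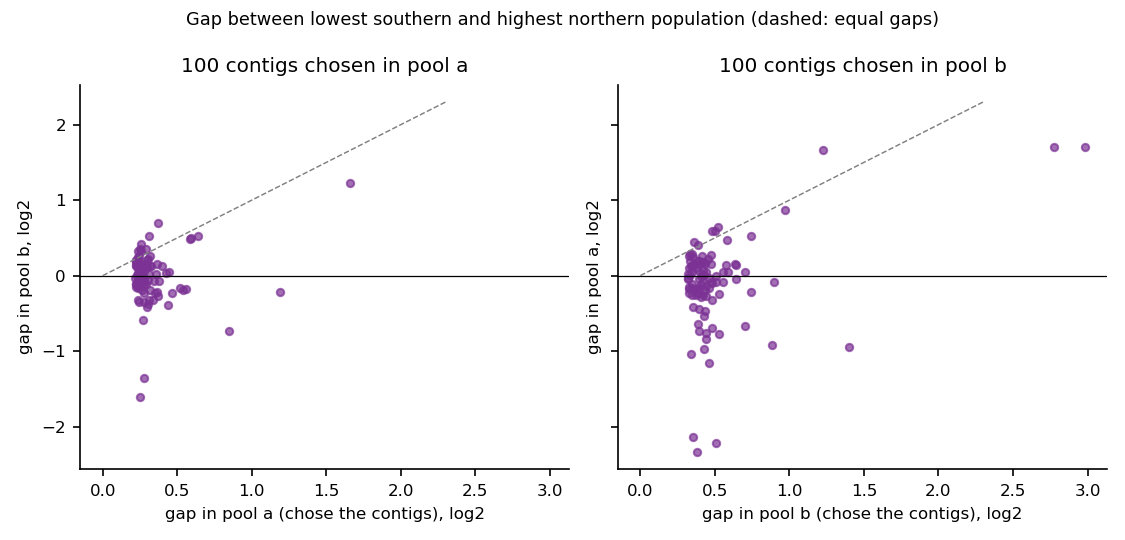
Gap between the lowest southern and the highest northern population mean, in log2(CPM + 1), for the 100 contigs chosen in pool a (left) or pool b (right), in the pool that chose them (x axis) and in the other pool (y axis). The dashed line marks equal gaps. Most points lie below it, and 50 and 46 of 100 lie above 0.

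The difference between pools a and b of the same population and temperature was not ranked by the rule. Both pools enter its population means, so a contig low in a single northern pool can gain a wider gap and a pool difference. Movement between pools is therefore not independent of how the list was chosen. Over the 12 pairs of pools a and b, the listed contigs moved together from pool to pool. The mean correlation between 2 listed contigs over the 12 pairs was 0.28, against 0.0013 between 2 contigs with 2 CPM or more. Correlations of opposite sign cancel in such a mean, and the list was chosen for a single direction between latitudes. These correlations are taken about 0, since the order of pools a and b is arbitrary, and describe 12 pairs in which every contig shares the same larvae and library. A first axis held 40.3% of the pool differences of the list and 18.1% of those of all contigs with 2 CPM or more. The differences were also larger, with a median size of 0.35 on the log2 scale over the list and 0.22 over all. The widest was in northern population 1 at 20 °C, where 93 of the 100 contigs were higher in pool a (51.7% of all contigs), by a median of 0.79.

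**Figure D4:**
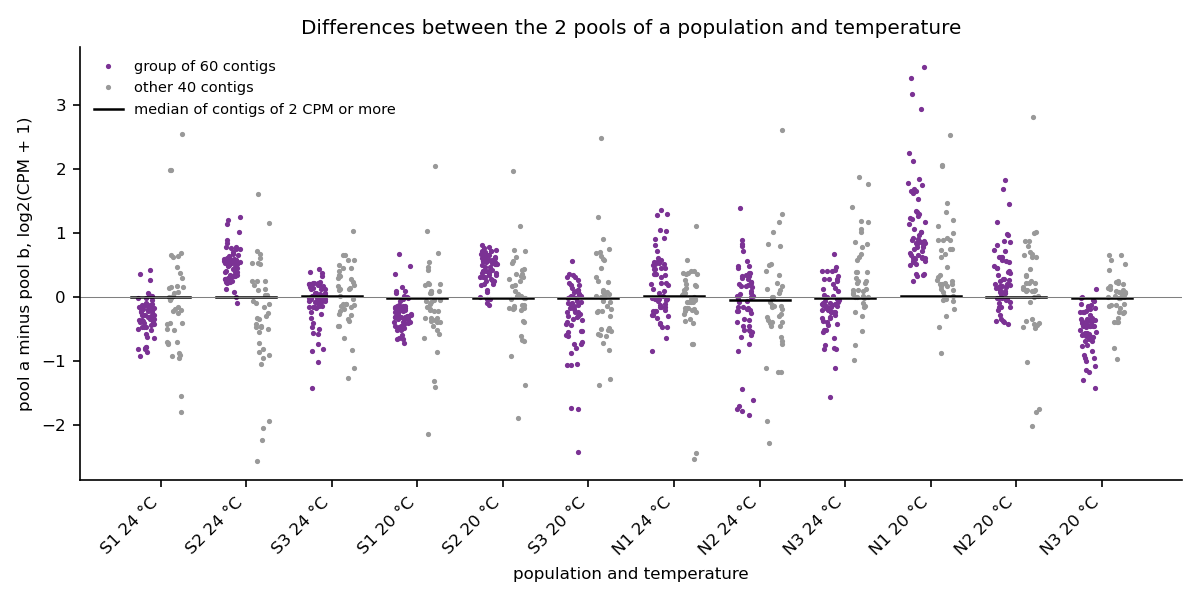
Pool a minus pool b in log2(CPM + 1) for each of the 100 contigs in the 12 pool pairs (S southern, N northern, population number and temperature), with the group of 60 contigs and the other 40 in separate colours and a black line for the median of all contigs with 2 CPM or more. The group of 60 lies off 0 as a block in several pairs, furthest in northern population 1 at 20 °C.

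Grouping contigs whose pool differences had a mean correlation of 0.5 or more put 60 of the 100, from 57 Trinity genes, into 1 group. Within it the mean correlation between contigs was 0.59 and the lowest was -0.15, so not every pair moved together. There were 20 groups in all, of which 8 held 3 or more contigs. The group of 60 held 80.5% of the summed CPM of the list. Its contigs had a median level of 14.1 CPM and a median log2 fold change of 0.75, against 3.56 CPM and 0.93 for the other 40, and 1 of its contigs was without overlap between latitudes, against 6 of the other 40. TRINITY_DN126643_c0_g1_i1 and TRINITY_DN69051_c4_g2_i1 belong to it, and the 3 contigs with the widest gaps do not. In the latitude fit 36 of the 60 and 19 of the other 40 were called.

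By group of larvae, the 60 contigs summed to 2523 ± 369 CPM in southern larvae at 24 °C, with 2488 ± 500 CPM in those at 20 °C, against 1411 ± 156 CPM in northern larvae at 24 °C and 1536 ± 469 CPM in northern larvae at 20 °C (SD, n = 6 each). The other 40 summed to 628 ± 97 and 631 ± 66 CPM in southern larvae at 24 and 20 °C, against 338 ± 43 and 332 ± 71 CPM in northern larvae at 24 and 20 °C. The sums of the 60 overlapped between latitudes, through pool a of southern population 1 at 20 °C with 1794 CPM and the northern pools a of population 1 and b of population 3 at 20 °C with 2003 and 2075 CPM. The sums of the other 40 did not overlap, with 546 CPM in the lowest southern and 412 CPM in the highest northern library.

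The group's pool differences followed the main axis on which pools of all contigs differed. Their mean had a correlation of size 0.89 with the first axis of the 17996 contigs with 2 CPM or more. Its correlation was -0.06 with the pools' log2 difference in library total and 0.19 with that in TMM factor. Contigs with a correlation of 0.8 or more to the group numbered 221, of which 25 were on the list, and 190 had -0.8 or less.

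Contigs off the list that moved with the group between pools were also mostly higher in southern larvae. Of 196 unlisted contigs with a correlation of 0.8 or more, 191 (97.4%) had a log2 fold change above 0 between latitudes, with a median of 0.35, and 14 were called higher and 0 lower by edgeR's quasi-likelihood test, with 148 and 0 at an unadjusted p under 0.05. Of 188 tested contigs with -0.8 or less, 7 (3.72%) were above 0, with a median of -0.49, and 35 were called lower and 0 higher, with 110 and 0 at an unadjusted p under 0.05. Of all 17789 unlisted contigs with 2 CPM or more, 51.1% were above 0, with a median of 0.01; 76 (0.427%) were called higher and 365 lower, and 11.1% were higher and 12.6% lower at an unadjusted p under 0.05. The contigs on the list and off it thus shared a direction between latitudes with others that rose and fell beside them from pool to pool. Contigs picked for moving together in the same libraries are not separate observations, and the group they followed was chosen for high southern levels. Their counts describe a shared axis and do not measure how often it would recur in other populations. The part of this axis in the latitude difference of the 100 contigs was not tested.

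**Figure D5:**
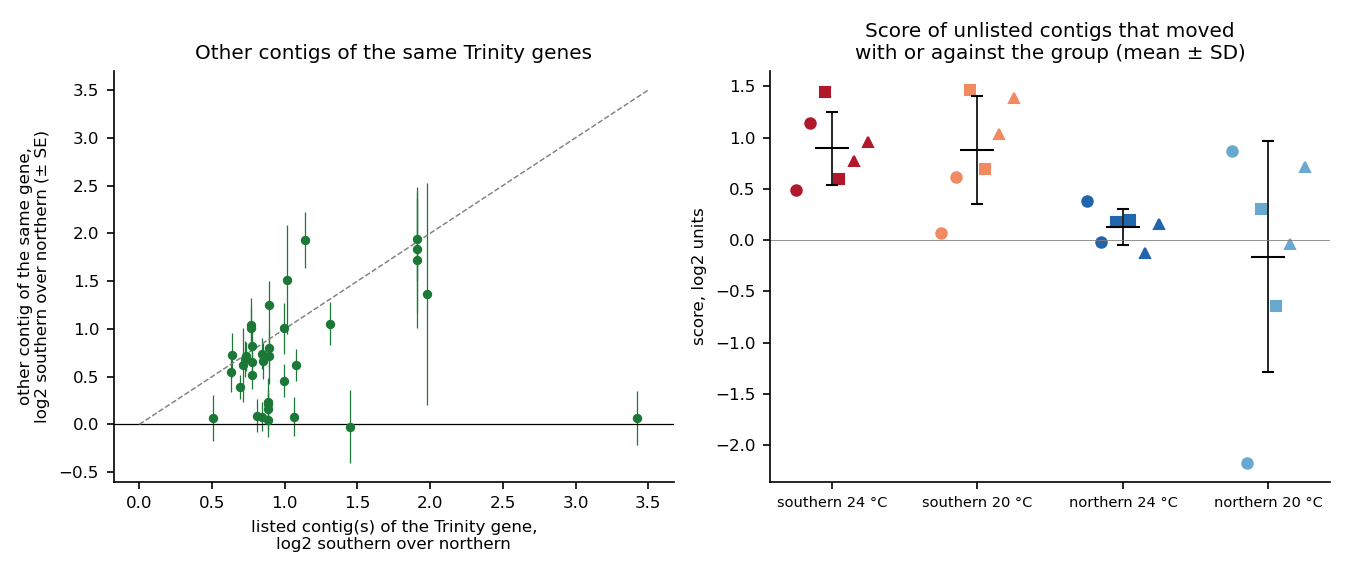
Left, log2 fold change between southern and northern larvae (± SE, 3 populations each) of 36 unlisted contigs (y axis) against that of the listed contigs of the same Trinity gene (x axis), with a dashed line for equal values; 35 of 36 lie above 0. Right, score of the unlisted contigs that moved with or against the group of 60 in each library, in log2 units, with the mean ± SD of 6 libraries; southern libraries lie between 0.07 and 1.46, and northern ones from -2.17 to 0.87.

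A score was formed for each library from the unlisted contigs alone. It is the mean log2(CPM + 1) of the unlisted contigs that moved with the group minus that of those that moved against it, and its zero has no meaning of its own. It averaged 0.90 ± 0.36 in southern larvae at 24 °C and 0.88 ± 0.52 in southern larvae at 20 °C, against 0.13 ± 0.18 in northern larvae at 24 °C and -0.16 ± 1.13 in northern larvae at 20 °C (SD, n = 6 each). Population means were 0.58, 1.05 and 1.03 in southern populations 1 to 3, all above the -0.24, 0.01 and 0.17 in northern populations 1 to 3. With 3 against 3 populations the smallest two-sided exact permutation p possible is 0.1, and none is given for a score chosen in this way. Pools a and b of northern population 1 at 20 °C were the highest and the lowest northern libraries, with scores of 0.87 and -2.17, and pool a of southern population 1 at 20 °C was the lowest southern one with 0.07. The group's mean pool difference was widest in northern population 1 at 20 °C, at 1.13 on the log2 scale. Contigs of the score were chosen for following the group's pool differences, which favoured a wide split of the score there.

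Leaving out both libraries of northern population 1 at 20 °C, an alternative chosen after seeing the data, weakened the shared movement. The mean correlation between 2 listed contigs fell to 0.15 over the remaining 11 pairs, against 0.0016 for all contigs with 2 CPM or more. Of unlisted contigs that moved with the group over those pairs, 79 of 90 (87.8%) were higher in southern larvae, with a median log2 fold change of 0.30, and of those that moved against it 6 of 49 (12.2%), with a median of -0.30. The size of the correlation with the first axis of all contigs fell to 0.50. The fit between latitudes without these libraries called 46 of the 100 contigs higher and 163 of all tested contigs.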

How the data were processed

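The deposited file gives raw counts for 34095 contigs in 24 libraries. Tools named in the submitters' processing notes are Subread 1.5.1, featureCounts, Trimmomatic 0.36 and FastQC 0.11.5. Not given in the sources used here are the assembly, its filters, the use of strand and the treatment of reads that match several contigs. These decide how reads were shared between isoforms and near-identical copies. No sequence of a contig was used here.

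Tests used edgeR 4.0.16 (R 4.3.3). TMM factors scaled the libraries, and filterByExpr (minimum count 10, minimum total 15) kept 31287 contigs. CPM are on TMM-scaled library sizes. Latitude was tested on counts summed per population, 3 against 3, for both temperatures together and for each alone. Temperature was tested on the 24 libraries with 1 intercept per population and a temperature effect per latitude, and differences in response with a slope per population. Both temperatures come from each population by the labels, which pairs them. The tests were quasi-likelihood F tests with robust dispersions, adjusted by Benjamini-Hochberg over all contigs, with a threshold of 0.05. Each SE is the log2 fold change divided by the square root of F. The population numbers of the 2 latitudes name different populations and pair nothing. DESeq2 1.42.0, limma 3.58.1, other scalings, no filter, and fits without each population or library were alternatives. The fits were also run on simulated counts with 2- and 4-fold changes planted in contigs with many reads. No differences between populations were simulated beyond the planted ones. The simulation therefore does not show how the fits perform on smaller changes, on contigs with few reads or on real populations. The p-values measure the spread between these populations and pools, and the floor of 3 counts covers counting error only.

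The members and lists were chosen with earlier results of these data known. Contigs were named by rule: the 2 with the widest gap, the 2 with the highest mean CPM, the 2 with the smallest p for responses that differ among populations of a latitude, the 2 with the widest spread of southern populations, and up to 2 called in each direction among unlisted contigs of the same Trinity genes. TRINITY_DN6237_c0_g1_i1, TRINITY_DN178716_c0_g1_i2 and TRINITY_DN235724_c0_g1_i1 were named after their values were seen. Lists of pathway genes or cell type markers could not be applied to contigs without names.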

Additional observations from a re-analysis of the deposited data

Results flagged for a closer look

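Among the named contigs, 8 values in CPM lay further from the other 5 libraries of their group than Dixon's test allows at 0.05, which chance gives for about 1 in 20 groups. On the log2(CPM + 1) scale, where high values stand out less, 25 of 400 tests over all 100 contigs and 4 groups (6.25%) passed that limit, in 24 contigs. TRINITY_DN1332_c14_g5_i7 had 10.7 CPM in pool a of northern population 1 at 20 °C, where the next northern library at that temperature had 1.01 CPM. TRINITY_DN6237_c0_g1_i2 had 4.78 CPM in pool b of northern population 1 at 24 °C, where the other 5 libraries had 0, and 3.02 CPM in pool b of northern population 2 at 20 °C, which did not pass on the log2 scale. TRINITY_DN123606_c0_g1_i3 had 82.0 CPM in pool b of southern population 2 at 24 °C and 135 CPM in pool a of southern population 1 at 20 °C, of which the second did not pass on the log2 scale. TRINITY_DN70817_c0_g1_i1 had 5.0 CPM in pool b of northern population 2 at 24 °C and 6.78 CPM in pool a of northern population 1 at 20 °C, of which the second did not pass on the log2 scale. TRINITY_DN178716_c0_g1_i1, which is not on the list, had 1.45 CPM in pool b of southern population 3 at 20 °C. It was not among the 400 tests on the log2 scale.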

How the results depend on the processing

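The list itself depended on its settings. Applied again, the rule chose 63 of the 100 without TMM, 66 with a mean of 5 CPM or more, 62 with responses within 0.5, 29 with no limit on the response, 19 and 33 in pools a and b alone, 23 at 24 °C alone, 26 at 20 °C alone, and 47 to 72 without each population, while other pseudocounts, DESeq2 size factors, a mean of 1 CPM, a window of 0.2 and population medians kept 68 to 98. For both temperatures 55 contigs were called higher. The count was 97 with DESeq2, 95 with limma and population as a random block, and 2 to 77 when a population or library was left out. With the population number as a replicate block it was 5, where the numbers share nothing but a label. At 24 °C 13 were called, against 24 with no filter on low counts, 42 with limma, 70 with DESeq2 and 3 to 10 without each population. At 20 °C 0 were called, against 20 with limma and 55 with DESeq2. For these alternatives at single temperatures no count over all contigs is given, so the counts have no share beside them. Of unlisted contigs of the same genes 1 was called higher, against 2 with DESeq2 size factors, 2 with no filter, 16 with limma, 15 with DESeq2, 3 over Trinity components, 2 for sums per gene and 0 to 5 without a population or library, and 0 were called lower in each of these. Among northern populations 1 was called, against 2 with DESeq2 and 0 to 2 without each population. The counts of 0 for temperature, for its difference between latitudes, among southern populations and for unequal slopes did not change under the alternatives run, the fit without population (no replicate block) included. Without both 20 °C libraries of northern population 1 the mean correlation was 0.155, against 0.281, and 12.2% of contigs moving against the group were higher in southern larvae, against 3.72%. Causes were not tested. At 3 counts, levels under 0.176 to 0.283 CPM were not measurable.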
